A study of Mus musculus with 11 samples.

Results

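The question addressed was whether maternal protein restriction and neonatal streptozotocin (STZ) shifted pancreatic transcripts additively, or whether one exposure altered the difference made by the other. For each gene the STZ minus sham difference in offspring of control dams was subtracted from the STZ minus sham difference in offspring of low protein dams, on log2 values; this difference of differences is called the interaction. The calculation used all arrays of the series, 11 of 11, and no array was chosen by its values. An interaction of 0 means that low protein STZ pancreas lay at the additive level, which is the low protein sham mean plus the control STZ mean minus the control sham mean. A positive interaction means that low protein STZ pancreas lay above that level.

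The arrays measured whole pancreas RNA from female Balb/C mice at 30 days of age. The animals formed 4 groups. Control sham (n = 3) came from dams fed 20% protein in gestation and received vehicle, and control STZ (n = 2, replicates 1 and 3) came from dams on that same diet and received STZ at 35 mg per kg. The low protein sham (n = 3) and the low protein STZ group (n = 3) came from dams given an isocaloric diet with 8% protein until birth, after which these dams too received the control diet. STZ or vehicle was injected on each of days 1 to 5 after birth. Replicate 2 of control STZ was not analysed here. Diet was assigned to dams and the labels name no dam, so differences between litters and differences between diets cannot be told apart.

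STZ is a glucose analogue that enters β cells through the glucose transporter GLUT2 and alkylates their DNA, and a series of small doses spares some of these cells. β cells of newborn rodents can divide and partly refill the islet mass after such an injury. Protein restriction before birth is known in rodents to reduce islet size, β-cell proliferation and islet blood supply, so that both exposures act on the same small compartment of a gland made mostly of acinar cells.

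The tissue label was checked against defining markers. Acinar enzymes were at mean log2 signals between 12.78 and 15.57 over 23 tested genes, and 7 tested islet hormones lay between 7.56 and 13.86. Array medians ranged from 7.916 to 7.967. The 3′ minus 5′ log2 difference, a measure of RNA integrity, was 0.966 and 1.82 for Gapdh and 1.202 and 2.046 for Actb in the control STZ arrays, which enter every interaction; over the other 9 arrays it was 1.13 to 1.846 and 1.313 to 2.092. Correlations over tested genes were 0.9685 to 0.9904 within groups and 0.9564 to 0.9902 between groups. Control sham 1 and low protein STZ 1 stood at the ends of the first principal component (scores 22.96 and -28.56, 38.4% of the variance). Several results that rest on them are given with and without them. Control sham 2 stood apart on the second component (score -20.89, 13.7% of the variance), where the other arrays ranged from -5.54 to 10.62. Signals of the hybridisation controls, foreign transcripts spiked into every hybridisation, averaged 11.663 in control sham, 11.685 in control STZ, 11.3 in low protein sham and 11.128 in low protein STZ arrays.

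No gene had an interaction that passed Benjamini-Hochberg adjustment over 15897 tested genes (0 genes, 0.0%; limma, smallest adjusted p = 1). At an unadjusted p under 0.05, 566 genes were counted (3.56%), which is below the share that this threshold gives when no gene differs. Of these, 214 were positive (1.35%) and 352 negative (2.21%). The split depended on scaling, at 281 against 286 under cyclic loess and 246 against 289 under quantile scaling. Over all tested genes 7150 interactions were positive (45.0%) and 8746 negative (55.0%), the median was -0.02 on the log2 scale, and the central 95% of genes lay between -0.38 and 0.32. The 95% interval of a gene's interaction, not adjusted for the number of genes, reached 0.327 to either side in the median gene. Interactions smaller than about this size could not be resolved for a typical gene, and no larger one passed adjustment. Without control sham 1, 852 genes were at unadjusted p under 0.05, and 842 were without control sham 1 and low protein STZ 1 together.

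The simple contrasts also had 0 genes past adjustment in limma. At unadjusted p under 0.05, STZ against sham gave 644 genes in the control diet (4.05%) and 412 in the low protein diet (2.59%). Low protein against control gave 1655 genes in sham animals (10.4%) and 1509 after STZ (9.49%), and low protein STZ against control sham gave 2498 (15.7%). STZ differences in the control diet and in the low protein diet, which share no array, had a Pearson correlation of 0.034 and a Spearman correlation of -0.004 across 15897 genes. Diet differences in sham and in STZ animals, which share no array either, correlated at 0.478 and 0.39. Points of these correlations are genes measured together on the same arrays, and they serve as a description without a p-value.

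**Figure D1:**
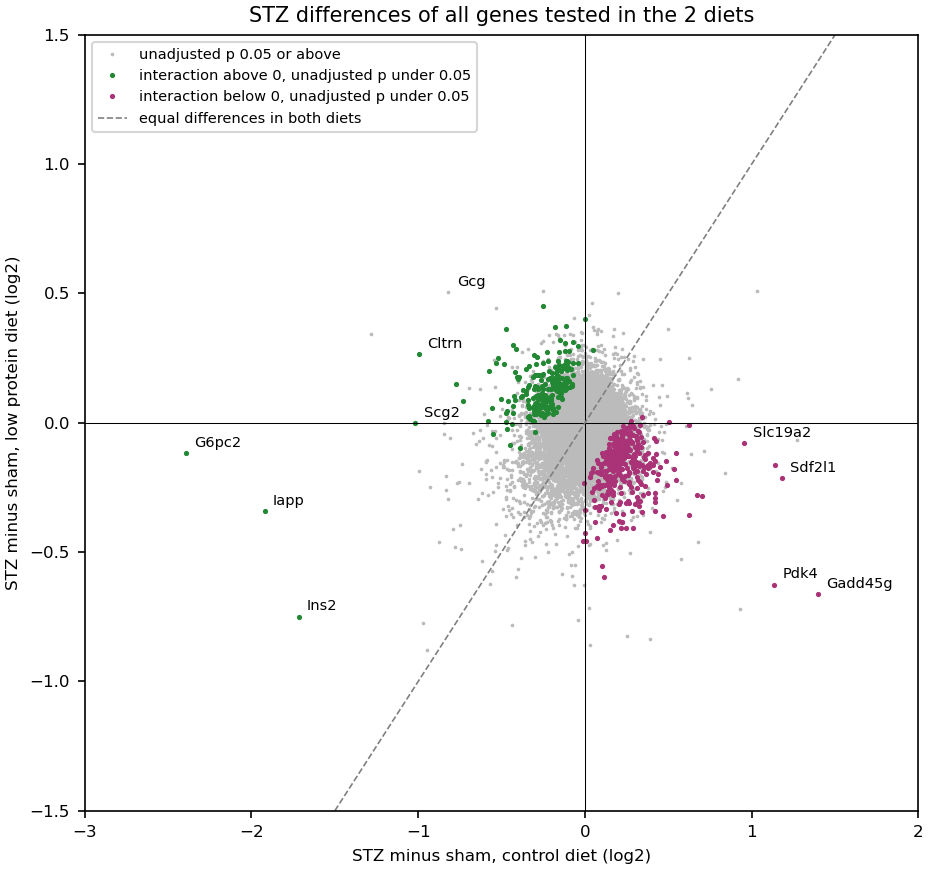
STZ minus sham on the log2 scale in offspring of control dams (horizontal axis) and of low protein dams (vertical axis), 1 point per tested gene. The dashed line marks equal differences; Ins2, Iapp and G6pc2 lie at -1.72, -1.92 and -2.39 horizontally and at -0.75, -0.34 and -0.12 vertically, and coloured points are the 214 genes with a positive and the 352 with a negative interaction at unadjusted p under 0.05.

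The 4 largest positive interactions at unadjusted p under 0.05 belonged to the islet transcripts G6pc2, Iapp, Cltrn and Scg2. Each exposure alone went with a lower level of the β-cell genes Ins2, Iapp and G6pc2, and the combined group lay well above the additive level. For Iapp and G6pc2 the combined group lay near the level of either single exposure. For Ins2 the combined mean of 13.13 was near control STZ (13.25) but below low protein sham (13.88). In whole pancreas, fewer cells of a type and less RNA per cell cannot be told apart. None of these genes passed adjustment (limma adjusted p = 1 for each).

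Ins2, which encodes insulin, read 14.81, 15.24 and 14.86 in the control sham arrays, 13.10 and 13.41 in control STZ, 14.47, 13.91 and 13.27 in low protein sham, and 12.89, 13.57 and 12.93 in low protein STZ. All control sham arrays lay above every other array, and the low protein STZ arrays overlapped both single-exposure groups. STZ went with a 3.29-fold lower Ins2 level in the control diet (-1.72 ± 0.31, log2 difference ± SE) and a 1.68-fold lower level in the low protein diet (-0.75 ± 0.28). The additive level was 12.17 and the observed mean 13.13, an interaction of 0.97 ± 0.42 (95% interval 0.05 to 1.89, limma adjusted p = 1). Leaving out each array in turn gave 0.66 to 1.26. Ins2 was at unadjusted p under 0.05 in 12 of 20 alternatives. Ins1, the other mouse insulin gene, was not analysed here for want of a probe set with that symbol alone, and its transcripts may add to the Ins2 signal.

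Iapp, which encodes amylin, a peptide released from β cells together with insulin, read 14.32, 14.85 and 14.27 in control sham, 12.72 and 12.40 in control STZ, 13.70, 12.72 and 12.04 in low protein sham, and 12.15, 12.76 and 12.51 in low protein STZ. Again the control sham arrays stood above all others, while the 3 remaining groups overlapped. Low protein diet alone went with a 3.16-fold lower level and STZ alone with a 3.79-fold lower one, but the combination was 4.01-fold below control sham. Added together, the single differences gave a level of 10.90, against an observed 12.48, an interaction of 1.58 ± 0.52 (95% interval 0.44 to 2.72, limma adjusted p = 1). The other 3 Iapp probe sets gave 1.59, 2.06 and 2.06, and the range over arrays left out was 1.19 to 2.02.

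G6pc2, a glucose-6-phosphatase subunit made in islets, had the highest interaction of all tested genes. Its signals were 8.66, 9.93 and 8.72 in control sham, 6.80 and 6.62 in control STZ, 7.45, 7.42 and 6.80 in low protein sham, and 7.18, 7.11 and 7.02 in low protein STZ. The low protein STZ arrays all lay above the control STZ arrays and within the range of low protein sham. The interaction was 2.28 ± 0.44 (95% interval 1.30 to 3.25, limma adjusted p = 1). The additive level of 4.83 lies below 6.866, the limit under which genes were set aside as dim, and both control STZ arrays were under that limit.

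**Figure D2:**
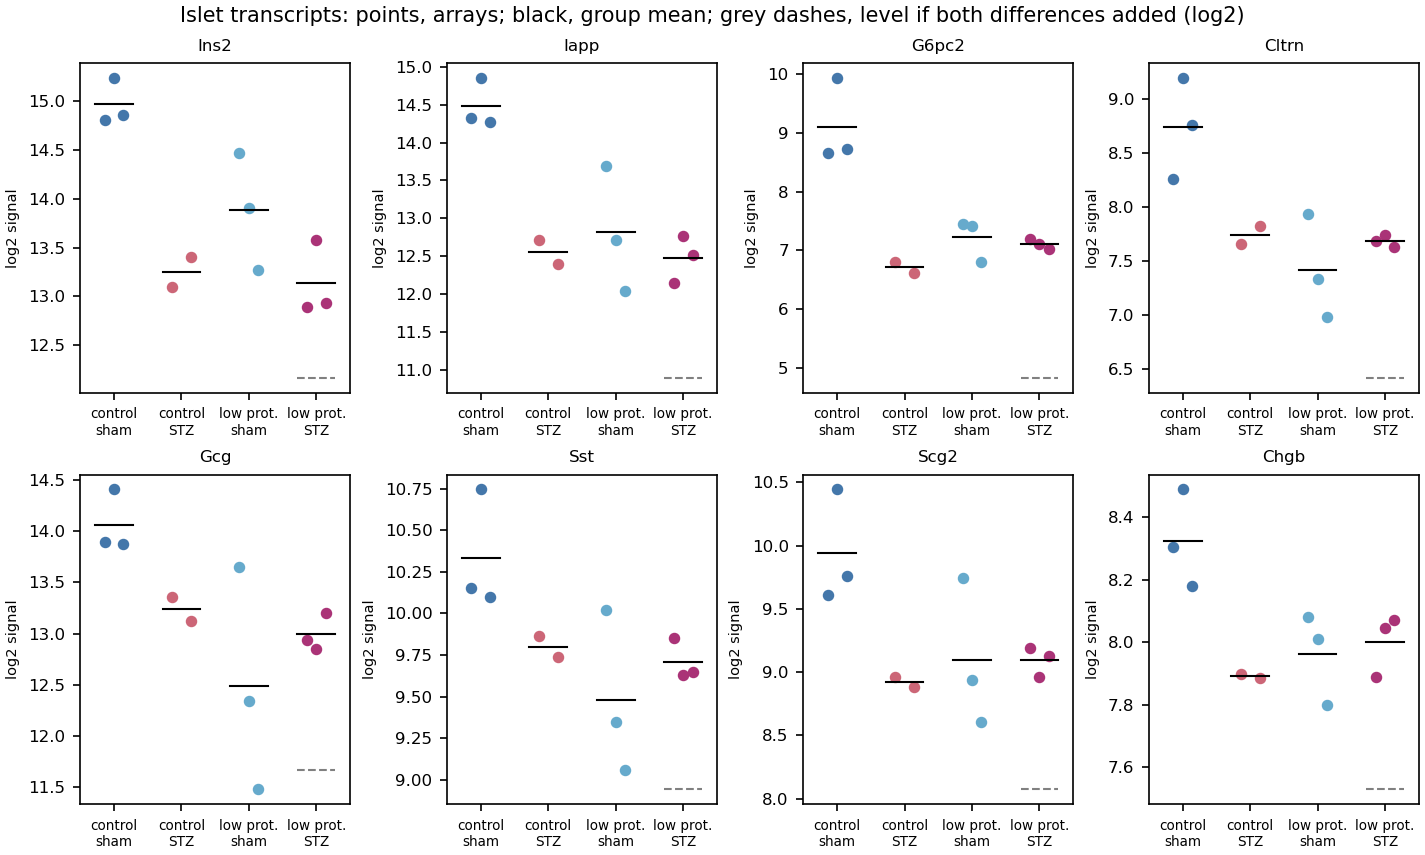
Log2 signal of 8 islet transcripts in each array by group (points), with the group mean (black bar) and, for low protein STZ, the additive level (grey dashes). In each panel the low protein STZ mean lies above its additive level, for example 13.13 against 12.17 for Ins2 and 12.48 against 10.90 for Iapp.

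Of the list of β-cell identity and glucose sensing genes, 20 of 26 were tested. Their median interaction was 0.12, with 12 positive and 8 negative, and 3 were positive at unadjusted p under 0.05 (1.35% of all genes were), namely G6pc2, Cltrn and Trpm5. The list median was 0.06 without low protein sham 1 and 0.08 without low protein STZ 3. With every probe set tested it was 0.02. Cltrn, which encodes collectrin, a membrane protein of β cells and kidney, read 8.26, 9.19 and 8.76 in control sham, 7.66 and 7.82 in control STZ, 7.94, 7.34 and 6.98 in low protein sham, and 7.68, 7.74 and 7.63 in low protein STZ. The STZ arrays of both diets nearly coincided, between the highest and lowest low protein sham arrays, and the interaction was 1.26 ± 0.37 (95% interval 0.44 to 2.08), with an additive level of 6.42 that is also under the limit for dim genes. For Trpm5, a calcium-activated cation channel of β cells, the interaction was 0.36 ± 0.14, but its other probe sets gave -0.08 and -0.01. Ucn3, a peptide of mature β cells, had an interaction of 0.30 ± 0.14 with an interval that included 0.

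Hormones of the other islet cells had interactions of the same sign. Gcg, which encodes glucagon, read 13.90, 14.41 and 13.87 in control sham, 13.36 and 13.12 in control STZ, 13.65, 12.34 and 11.48 in low protein sham, and 12.94, 12.85 and 13.20 in low protein STZ. Low protein sham arrays were spread over more than 2 log2 units, with replicate 1 above and replicates 2 and 3 below every STZ array. The Gcg interaction was 1.32 ± 0.62 (95% interval -0.05 to 2.69) and 0.82 without low protein sham 3. Sst, which encodes somatostatin, was 10.33 ± 0.36 in control sham, 9.80 ± 0.09 in control STZ, 9.48 ± 0.49 in low protein sham and 9.71 ± 0.12 in low protein STZ (mean ± SD). Its interaction was 0.77 ± 0.34 (95% interval 0.00 to 1.53), at unadjusted p under 0.05 in 8 of 20 alternatives. Without control sham 2 or low protein sham 3 the Sst interaction was 0.56. Ppy, encoding pancreatic polypeptide, had 0.20 ± 0.34 (95% interval -0.54 to 0.95), which turned to -0.03 without control sham 2; it was 0.34 without control sham 1, and 0.46, 0.13 and 0.03 without low protein sham 1, 2 and 3.

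Over the 7 tested hormones, all 7 interactions were above 0, against 45.0% of all genes, with a median of 0.77 (all genes -0.02). At unadjusted p under 0.05 were 3 (Ins2, Iapp and Sst), against 1.35% of all genes in that direction. The median STZ difference of these hormones was -0.59 in the control diet and -0.01 in the low protein diet. Their median diet difference was -0.86 in sham animals and -0.09 after STZ. The mean of the 7 hormones was 11.385, 11.909 and 11.382 in control sham, 10.784 and 10.675 in control STZ, 11.311, 10.580 and 10.197 in low protein sham, and 10.594, 10.720 and 10.612 in low protein STZ. Low protein sham 1 was thus close to the control sham arrays, whereas the 5 STZ arrays lay between 10.594 and 10.784 whatever the diet. The hormone median was 0.56 to 1.04 over arrays left out in turn and 0.69 with the spiked controls as a covariate. It was 0.56 without control sham 2, which had the highest hormone mean, or without low protein sham 3, which had the lowest.

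Granins and prohormone processing enzymes, the cargo and convertases of secretory granules, had a median interaction of 0.40 over 10 tested of 11 genes. Of these, 8 were positive and 2 negative, against 45.0% positive over all genes. At unadjusted p under 0.05 were Scg2 and Chgb, both positive, against 1.35% of all genes. Scg2, which encodes secretogranin II, read 9.61, 10.44 and 9.76 in control sham, 8.96 and 8.88 in control STZ, 9.74, 8.94 and 8.61 in low protein sham, and 9.19, 8.96 and 9.12 in low protein STZ. Here STZ went with a 2.02-fold lower level in the control diet and with a log2 difference of 0.00 in the low protein diet, and the interaction was 1.02 ± 0.41 (95% interval 0.12 to 1.91). Chgb, encoding chromogranin B, had an interaction of 0.47 ± 0.15 (95% interval 0.14 to 0.81), with all 3 low protein STZ arrays (7.89 to 8.07) below all 3 control sham arrays (8.18 to 8.49). Scg5, the chaperone of the convertase PC2, had 0.80 ± 0.44, and 0.50 without low protein sham 3. Chga, encoding chromogranin A, had 0.53 ± 0.31.

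Islet transcription factors and exocytosis genes had smaller values. Over 11 tested transcription factors of 16 the median interaction was 0.17, with 7 positive, 4 negative and 0 at unadjusted p under 0.05 in limma. The median was 0.04 to 0.11 when control sham 1 or 2, control STZ 1 or 3, low protein sham 1 or 3, or low protein STZ 1 or 3 was left out. With the mean of all probe sets of a gene it was 0.03. Pdx1, a master regulator of pancreas and β cells, had 0.27 ± 0.13 (95% interval -0.02 to 0.56), with an STZ difference of -0.31 after the control diet and of -0.04 after low protein. Insm1, an endocrine differentiation factor, had 0.30 ± 0.19 and Nkx6-1, a β-cell factor, -0.22 ± 0.15. Leaving out low protein STZ 1 or 2 gave 0.18 or 0.47 for Insm1, and leaving out low protein STZ 3 gave -0.09 for Nkx6-1. For vesicle docking and exocytosis the median over 13 genes of 16 was 0.09, with 7 positive, 6 negative and again 0 at unadjusted p under 0.05, and it was 0.03 to 0.04 without control sham 1 or 2, control STZ 1, low protein sham 3 or low protein STZ 3. The exocytosis median was 0.01 with the mean of all probe sets of a gene. Sytl4, the granule protein granuphilin, was lower after STZ in both diets with no overlap of STZ and sham arrays, by 0.40 and 0.16 on the log2 scale, and its interaction was 0.24 ± 0.16. Without control sham 3 the Sytl4 interaction was 0.12, and its other probe set gave -0.16.

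**Figure D3:**
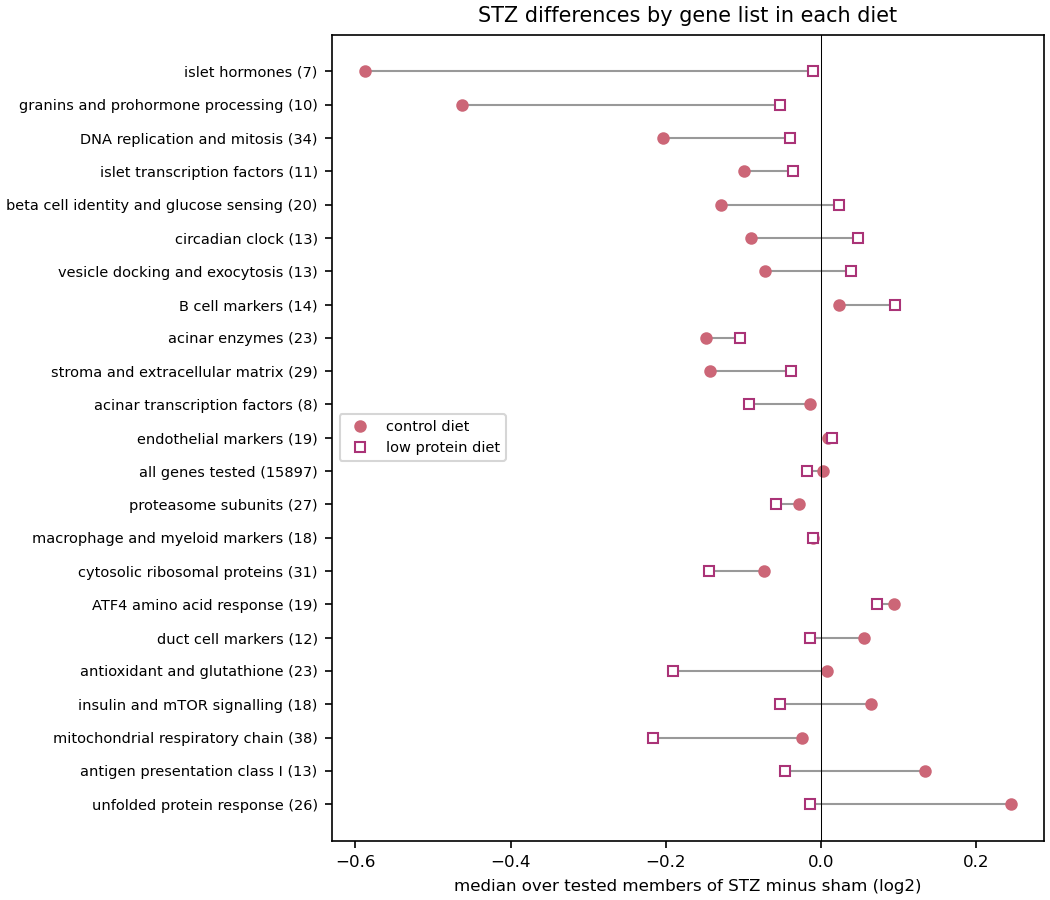
Median STZ minus sham difference (log2) over the tested members of each of 22 gene lists and over all tested genes, in the control diet (filled circles) and the low protein diet (open squares), ordered by median interaction; numbers in brackets are tested genes. Islet hormones (-0.59 and -0.01) and the unfolded protein response (0.25 and -0.01) are the ends of the order.

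Acinar enzymes, the digestive proteins that make up most pancreatic RNA, lay close to the additive level. All 23 tested enzymes were lower in low protein than in control arrays, both in sham (median -0.44) and in STZ animals (median -0.39), and all 23 had lower means after STZ in each diet (medians -0.15 and -0.10). Their mean level was 15.461 ± 0.046 in control sham, 15.318 ± 0.050 in control STZ, 14.997 ± 0.031 in low protein sham and 14.898 ± 0.280 in low protein STZ (mean ± SD over arrays), against an additive level of 14.855. Low protein STZ 1, at 14.582, was far below the other 2 arrays of its group, at 14.993 and 15.118. The median interaction was 0.05, with 20 positive, 3 negative and 0 at unadjusted p under 0.05 in limma, against 45.0% positive over all genes. Amy1, encoding an amylase, had 0.15 ± 0.18, with 0.31 without low protein STZ 1 and 0.03 without low protein STZ 3.

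The sign of that small acinar median was not fixed. It was 0.20 under cyclic loess scaling and -0.03 under quantile scaling, 0.20 without low protein STZ 1, 0.00 without low protein STZ 2 and -0.06 without low protein STZ 3. Without control STZ 1 it was 0.01, and without control STZ 3 it was 0.09. Prss2 (anionic trypsinogen) had an interaction of 0.07 ± 0.14 with a 95% interval of -0.24 to 0.39, and Cela3b (an elastase) had 0.07 ± 0.16 with an interval of -0.28 to 0.43. Among 8 acinar transcription factors the median was 0.01, with the opposite sign in 9 alternatives and a range from -0.30 without low protein STZ 3 to 0.12 without low protein STZ 1. Of these, 1 was at unadjusted p under 0.05 (2.21% of all genes were, in its direction). This was Gata4, a zinc finger factor of pancreatic development, at -0.58 ± 0.22 (95% interval -1.07 to -0.09). The other Gata4 probe set gave -0.22, and Gata4 was at unadjusted p under 0.05 in 12 of 20 alternatives. Gata6, its paralogue, had -0.42 ± 0.20, with -0.49 and 0.01 at its other probe sets. Duct cell markers had a median of -0.08 over 12 genes with 0 at unadjusted p under 0.05, and of -0.02 without low protein sham 1 and -0.03 without control STZ 3.

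Genes of the unfolded protein response, which folds, modifies or disposes of secretory proteins in the endoplasmic reticulum, had negative interactions more often than positive ones. All 26 genes of the list were tested, 18 were negative and 8 positive, against 55.0% negative over all genes, and the median was -0.25. The median STZ difference was 0.25 in the control diet, where 21 of 26 were higher after STZ, and -0.01 in the low protein diet, where 12 of 26 were. All 26 had lower means in low protein STZ than in control STZ arrays, as did 9906 of all 15897 tested genes. The list mean was 12.137 and 11.842 in control STZ, 11.757, 11.396 and 11.577 in low protein sham, and 11.070, 11.672 and 11.974 in low protein STZ. The 3 low protein STZ arrays thus ran from the lowest value of the series to above the control sham arrays (11.617 to 11.914), and without low protein STZ 1 the median interaction was 0.02. Leaving out control sham 2 gave -0.15, leaving out control STZ 1 gave -0.10 and leaving out low protein STZ 3 gave -0.45.

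At unadjusted p under 0.05 were 2 of the 26 genes, both negative (2.21% of all genes were). Sdf2l1, an endoplasmic reticulum chaperone cofactor, read 11.06, 10.97 and 9.72 in control sham, 12.19 and 11.34 in control STZ, 11.38, 10.73 and 10.82 in low protein sham, and 10.48, 11.13 and 10.68 in low protein STZ. Control sham 3 was the lowest of the 11 arrays and control STZ 1 the highest. The interaction was -1.39 ± 0.53 (95% interval -2.57 to -0.22, limma adjusted p = 1), with a range of -1.82 to -0.96 over arrays left out. Derl2, which moves misfolded proteins out of the endoplasmic reticulum, had -0.36 ± 0.15. Syvn1, the ubiquitin ligase of the same route, had -0.65 ± 0.31 (95% interval -1.33 to 0.03), with -0.915 without control sham 1 and -0.464 without control sham 2.

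For the ATF4 amino acid response the median over 19 genes was -0.05, with 0 at unadjusted p under 0.05. Its sign turned in 5 alternatives: it was 0.02, 0.04 and 0.05 without control sham 3, low protein sham 1 and low protein STZ 1, and -0.13, -0.19 and -0.16 without control sham 1, low protein sham 2 and low protein STZ 3. Ddit4, an inhibitor of mTOR signalling induced by stress, had -1.65 ± 0.77, and -0.94 without low protein sham 1, which at 10.79 was the highest of the 11 arrays. Atf4 itself, the transcription factor of the response, had -0.30 ± 0.18. Without control STZ 1 its interaction was -0.20, and without low protein STZ 1 it was -0.19.

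Subunits of the mitochondrial respiratory chain were negative in 32 and positive in 6 of 38 tested genes, against 55.0% negative over all genes, with a median interaction of -0.17. Their mean level was 11.630 in control sham and 11.632 in control STZ arrays, 11.267 in low protein sham and 11.058 in low protein STZ, against an additive level of 11.268. The median diet difference was -0.37 in sham and -0.57 in STZ animals. At unadjusted p under 0.05 were Ndufa6 and Cox8a, both negative, against 2.21% of all genes. Ndufa6, an accessory subunit of complex I, read 10.52, 9.85 and 10.32 in control sham, 10.94 and 10.77 in control STZ, 10.53, 10.41 and 10.13 in low protein sham, and 9.80, 10.31 and 9.90 in low protein STZ. Control STZ arrays were the highest of the series for this gene, and low protein STZ included the lowest. The interaction was -0.98 ± 0.27 (95% interval -1.59 to -0.38, limma adjusted p = 1). Cox8a, a subunit of cytochrome c oxidase, had -0.47 ± 0.19, and its other probe sets gave -0.50 and 0.11.

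The respiratory chain median rested on a few arrays. It was -0.02 without low protein STZ 1 and 0.01 with array weights. Without control sham 2, control STZ 1 or low protein sham 1 it was -0.08, -0.11 and -0.11. Without control sham 3, control STZ 3 or low protein STZ 3 it was -0.25, -0.28 and -0.29. Low protein STZ 1 had a list mean of 10.736, below the other 10 arrays, which ranged from 11.172 to 11.731, and the hybridisation controls were also lowest on that array, at 10.88. With those controls as a covariate the median was -0.12.

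Ribosomal proteins and proteasome subunits had lower medians in low protein arrays, where the hybridisation controls were also lower (11.3 and 11.128, against 11.663 and 11.685). In limma 0 genes passed adjustment in either diet contrast (1655 were at unadjusted p under 0.05 in sham and 1509 in STZ animals), and the part of those controls in the diet differences was not tested. Cytosolic ribosomal proteins had a median diet difference of -0.61 in sham and -0.67 in STZ animals over 31 tested genes of 52, and a median interaction of -0.03 that was not stable. It was 0.15 without low protein STZ 1, -0.17 and -0.16 without low protein STZ 2 and 3, -0.09 without low protein sham 3, 0.02 without low protein sham 1 and 0.06 under cyclic loess, and it was -0.05, -0.06, -0.05 and -0.07 without control sham 1, 2 and 3 and control STZ 3. Of the ribosomal genes, 1, Rps6, was at unadjusted p under 0.05 (-0.31 ± 0.13). This is 3.23% of the list, against 3.56% of all genes (2.21% in its direction). With the mean of all probe sets of a gene, the Rps6 interaction was -0.05. Over 27 proteasome subunits the median diet difference was -0.255 in sham and -0.344 in STZ animals. Their median interaction was -0.02, with the opposite sign in 8 alternatives. It ranged from -0.17 without control STZ 3 to 0.12 without low protein STZ 1, with 0.10 without control STZ 1, -0.09 without control sham 3, and -0.10 and -0.12 without low protein STZ 2 and 3. Of the proteasome genes, 1 was at unadjusted p under 0.05, which is 3.7% of the list, against 3.56% of all genes (2.21% in its direction). This was Psmb2, a subunit of the catalytic core, at -0.54 ± 0.17 (95% interval -0.91 to -0.18). Psmb2 read 10.63 and 10.36 in control STZ arrays and 9.94 to 10.29 in the 9 others. For class I antigen presentation the median was -0.18 over 13 genes, with 0 at unadjusted p under 0.05. Of these 13 genes, 9 were negative and 4 positive, against 55.0% negative over all genes. The class I median interaction stayed between -0.23 and -0.16 in all alternatives. The class I median STZ difference was 0.13 after the control diet and -0.05 after low protein. H2-K1, a class I heavy chain, had -0.42 ± 0.20, with -0.43, -0.25 and 0.03 at its other probe sets, and Psmb10, an immunoproteasome subunit, had -0.44 ± 0.21.

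**Figure D4:**
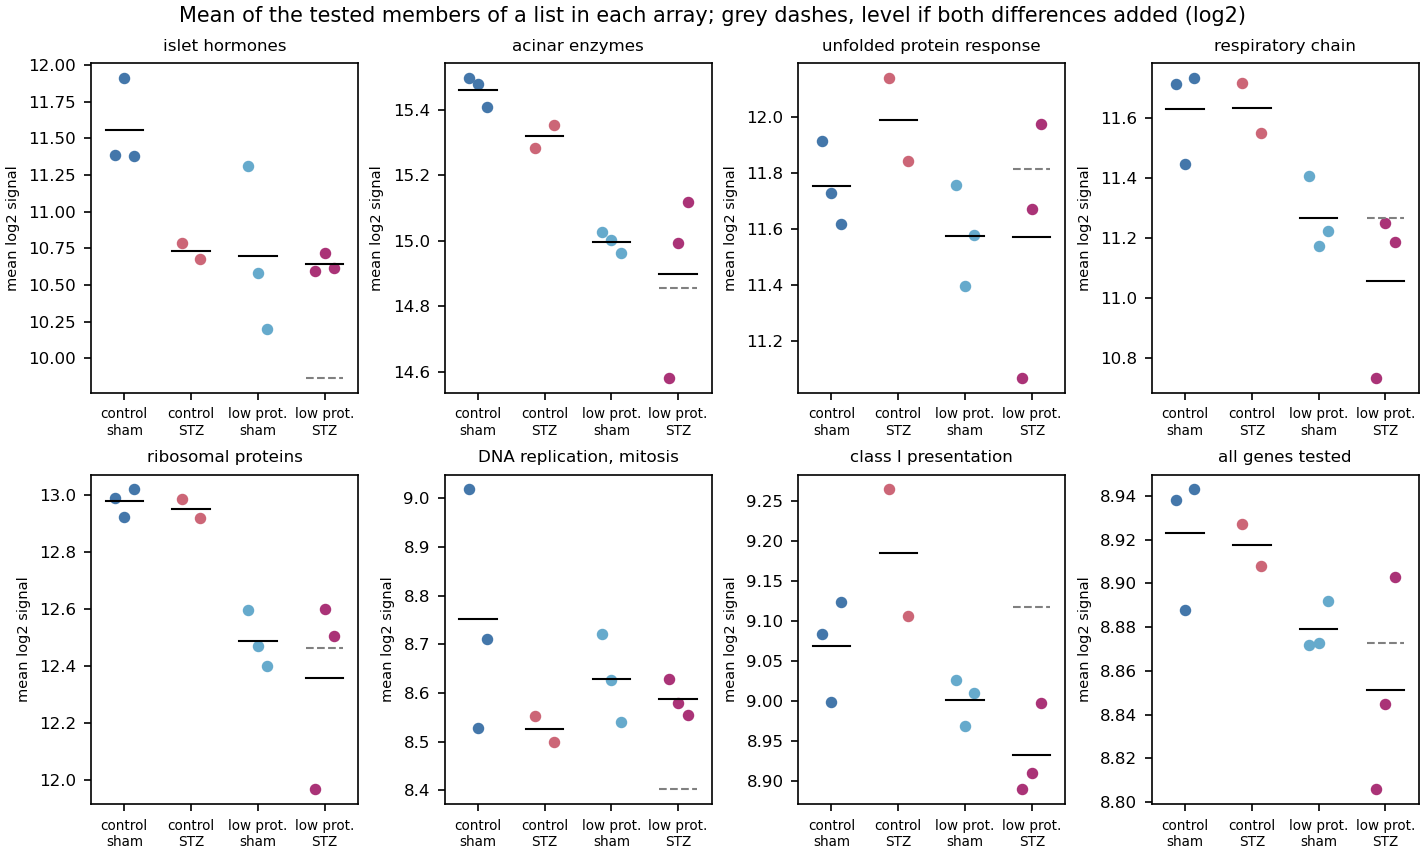
Mean log2 signal of the tested members of 7 gene lists, and of all tested genes, in each array by group (points), with group means (black bars) and the additive level for low protein STZ (grey dashes). Observed and additive means were 14.898 and 14.855 for acinar enzymes and 10.642 and 9.867 for islet hormones, and low protein STZ 1 is the lowest array for the respiratory chain and ribosomal proteins.

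DNA replication and mitosis genes had positive interactions in 25 and negative ones in 9 of 34 tested genes, against 45.0% positive over all genes, with a median of 0.18. At unadjusted p under 0.05 were 5, all positive, against 1.35% of all genes. These were Cdc6 and Cdt1, which license replication origins, Nusap1, a spindle protein, and Mcm5 and Mcm4, subunits of the replicative helicase. Cdc6 read 7.27, 7.01 and 7.11 in control sham, 6.87 and 6.76 in control STZ, 7.10, 7.10 and 7.15 in low protein sham, and 7.28, 7.15 and 7.10 in low protein STZ. The control STZ arrays were below every other array, and the other 3 groups overlapped. Control STZ 3, at 6.76, was under the limit for dim genes. The Cdc6 interaction was 0.37 ± 0.12 (95% interval 0.10 to 0.64). Cdt1 had 0.61 ± 0.21, but its other probe set gave 0.03, and Mcm5 had 0.93 ± 0.38.

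Control sham 1 set much of the replication result. Its list mean was 9.018, against 8.529 and 8.710 in the other control sham arrays and 8.499 to 8.721 in the remaining 8. Without control sham 1 the median interaction of the list was 0.03, without low protein sham 3 it was 0.12, and without control sham 1 and low protein STZ 1 together it was -0.01. Fitted with the spiked controls as a covariate it was 0.08.

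Other cell compartments had small medians that depended on single arrays. Endothelial markers had a median of -0.01 over 19 genes, with 1 at unadjusted p under 0.05, Kdr, which encodes the VEGF receptor 2 (0.31 ± 0.13, 95% interval 0.03 to 0.59), against 3.56% of all genes. The endothelial median changed sign in 16 alternatives and ran from -0.05 without control STZ 3 to 0.09 without control STZ 1 over arrays left out. Stroma and extracellular matrix had 0.04 over 29 genes, with 0 at unadjusted p under 0.05. Of these, 19 were positive and 10 negative, against 45.0% positive over all genes. The stroma median was 0.19 without control sham 1, -0.02 without control sham 3, 0.08 without control sham 2 and 0.12 without low protein sham 1. It was 0.08 and 0.09 without low protein STZ 1 and 2. Vim, encoding vimentin, had 0.76 ± 0.38 (95% interval -0.09 to 1.60), with 1.06 without control sham 1 and 0.58 without control sham 3. Macrophage and myeloid markers had a median of -0.02 over 18 genes, which changed sign in 7 alternatives and ran from -0.14 without control sham 3 to 0.16 without control sham 1. B cell markers had 0.09 over 14 genes, with 0.05 without control sham 2 and 0.04 without low protein STZ 1. Of the B cell markers, Ms4a1, encoding CD20, had 0.42 ± 0.15 and Cd79b, a chain of the B cell receptor, had -0.34 ± 0.15, so 2 markers of the same cell type had opposite signs at unadjusted p under 0.05. Over all genes, 1.35% were positive and 2.21% negative at that threshold. Ms4a1 was under it in 18 of 19 alternatives and Cd79b in 10 of 20.

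Among signalling and stress lists, insulin and mTOR signalling had 14 negative and 4 positive interactions over 18 genes, with a median of -0.11. Over all genes 55.0% were negative. The median was -0.20 without control sham 1 or low protein STZ 3, -0.04 without control sham 2, and -0.05 without low protein STZ 1 or 2. Mtor, the kinase of that pathway, had -0.27 ± 0.11 (95% interval -0.51 to -0.04), and its other probe sets gave -0.15 and -0.11. Of the 18 genes, 1, Mtor, was at unadjusted p under 0.05, which is 5.56% of the list, against 3.56% of all genes (2.21% in its direction). Antioxidant and glutathione genes had a median of -0.10 over 23 genes; it was -0.03 to -0.05 without control sham 1 or 2 or control STZ 1, -0.16 without control sham 3 and -0.22 without control STZ 3. Nfe2l2, which encodes the antioxidant regulator NRF2, read 8.86, 8.55 and 8.89 in control sham, 8.24 and 8.33 in control STZ, 8.05, 8.21 and 8.02 in low protein sham, and 8.11, 8.20 and 8.65 in low protein STZ. Control sham arrays were highest except that low protein STZ 3 fell among them, and the interaction was 0.71 ± 0.21 (95% interval 0.24 to 1.18), while the other Nfe2l2 probe set gave -0.15. In the circadian clock list the median was 0.11 over 13 genes and 0.08 without control STZ 1. Tef, a clock output factor, had 0.44 ± 0.14, with -0.03 and 0.12 at its other probe sets.

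Whether STZ went with opposite differences in the 2 diets was read gene by gene. Of the 566 genes at unadjusted p under 0.05, 549 had STZ differences of opposite sign (97.0%), against 8081 of all 15897 genes (50.8%), 13 had the same sign with a smaller difference in the low protein diet, and 4 the same sign with a larger one. Diet differences were of opposite sign in 469 (82.9%), against 5981 of all genes (37.6%). Genes enter this set by the size of the difference between their STZ differences, so a high share of opposite signs follows from the choice and is a description only.

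A stricter reading asked that all STZ arrays lie on one side of all sham arrays within each diet. STZ arrays were all higher in the control diet and all lower in the low protein diet for 66 genes (0.415%), and the reverse held for 52 (0.327%). They were higher in both diets for 32 genes (0.201%) and lower in both for 61 (0.384%). With so few arrays, some genes are separated in each of these ways when no gene differs. The shares to be met in that case were not calculated, so these counts are a description and not evidence of crossed differences. Within the control diet alone, where 2 arrays were set against 3, 1367 genes were separated upwards (8.6%) and 1220 downwards (7.67%), and within the low protein diet, with 3 against 3, 411 (2.59%) and 813 (5.11%).

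Genes of the first class were named by the smallest p. Gm20346, a predicted gene, read 8.41, 8.29 and 8.26 in control sham, 8.82 and 8.66 in control STZ, 8.70, 8.49 and 8.55 in low protein sham, and 8.35, 8.35 and 8.22 in low protein STZ. Either exposure alone went with a higher level, and the combined group overlapped the control sham arrays. The interaction was -0.69 ± 0.12 (95% interval -0.96 to -0.41, limma adjusted p = 1), and it stayed between -0.77 and -0.61 in all alternatives. Zfp819, a zinc finger gene, had the same order, at 6.76 ± 0.05, 7.17 ± 0.05, 6.99 ± 0.07 and 6.85 ± 0.07 (mean ± SD) in control sham, control STZ, low protein sham and low protein STZ, with an interaction of -0.55 ± 0.10. Its signals were near the limit for dim genes. Micalcl, Atg101, Lrrfip2 and Dvl3 completed the class as named, with interactions from -0.55 to -0.44. The other Lrrfip2 probe set gave -0.10. Atg101 is a subunit of the kinase complex that starts autophagy, and Dvl3 relays Wnt signals.

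In the reverse class, Phf20, a chromatin reader protein, read 8.85, 8.84 and 8.59 in control sham, 8.52 and 8.49 in control STZ, 8.44, 8.66 and 8.30 in low protein sham, and 8.88, 8.87 and 9.00 in low protein STZ. The combined group was above every other array, although each single exposure went with a lower mean. The interaction was 0.70 ± 0.15 (95% interval 0.36 to 1.04), while 3 other Phf20 probe sets gave -0.16, 0.09 and 0.21. S100a4, a calcium-binding protein of fibroblasts and myeloid cells, read 7.33, 7.40 and 7.46 in control sham, 7.20 and 7.24 in control STZ, 6.89, 7.17 and 6.96 in low protein sham, and 7.24, 7.41 and 7.48 in low protein STZ. Its combined group overlapped control sham, and the interaction was 0.55 ± 0.14. Vamp3, a vesicle fusion protein, had 0.56 ± 0.14, with other probe sets between -0.04 and 0.28. Cnot10, Msrb3 and E230029C05Rik had 0.46, 0.40 and 0.39. Other Cnot10 probe sets gave 0.075 and 0.209.

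**Figure D5:**
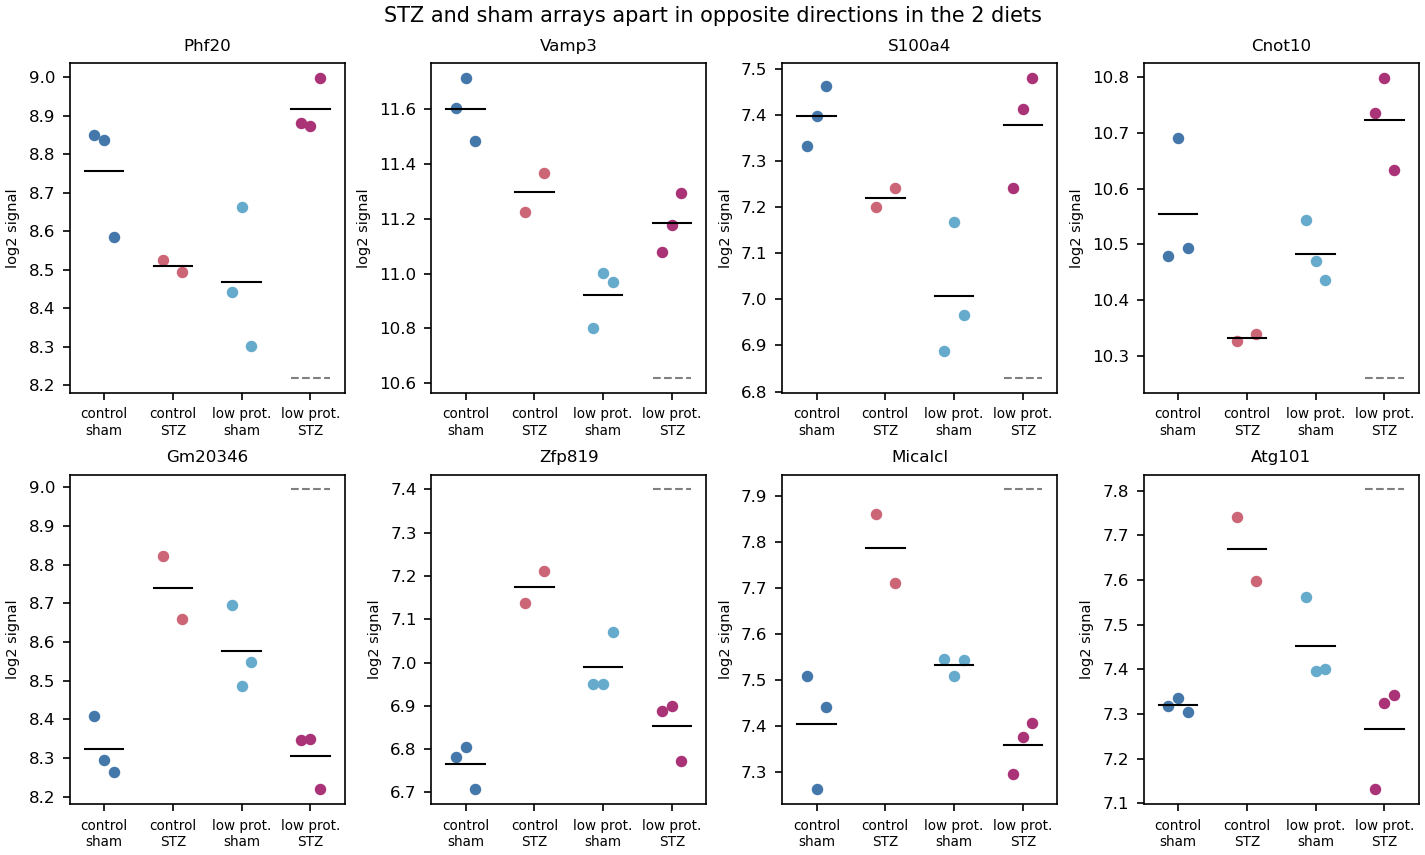
Log2 signal in each array (points) for 4 genes whose STZ arrays were all lower than sham in the control diet and all higher in the low protein diet (top row) and 4 with the reverse order (bottom row); black bars are group means and grey dashes the additive level. The low protein STZ mean lies above the additive level in the top row (Phf20, 8.92 against 8.22) and below it in the bottom row (Gm20346, 8.30 against 8.99).

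Other genes with small p were not separated within both diets. On the positive side, Smg8, a regulator of nonsense-mediated decay, Slc25a24, a mitochondrial carrier, Myadm and Mtfp1 had interactions from 0.48 to 0.61. The other Myadm probe set gave 0.13. Smg8 read 6.60 and 6.65 in control STZ arrays, below all 9 others, which ranged from 6.78 to 7.10. Both control STZ values were under 6.866, the limit for dim genes. On the negative side, Atp2c2, a calcium and manganese pump of the Golgi, had -0.77 ± 0.17 (95% interval -1.14 to -0.40), with control STZ at 10.79 and 10.56, above all 9 others, and low protein STZ at 9.72, 10.00 and 10.09. Josd2, a deubiquitinase, had -0.73 ± 0.20, and Gm10941 and Gpc1, a glypican, had -0.50 and -0.52.

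An interaction of at least 2-fold (1 log2 unit) was measured for 18 genes, 6 positive and 12 negative, and 9 of them were at unadjusted p under 0.05. These were G6pc2, Iapp, Cltrn and Scg2 on the positive side, and Gadd45g, Pdk4, Sdf2l1, Snd1 and Slc19a2 on the negative side. Gadd45g, Pdk4, Snd1 and Slc19a2 were named after their values had been seen. Gadd45g, a stress-induced regulator of growth arrest, read 7.32, 7.26 and 7.83 in control sham, 8.29 and 9.44 in control STZ, 9.51, 7.16 and 7.12 in low protein sham, and 7.20, 7.32 and 7.29 in low protein STZ. Its interaction of -2.06 ± 0.81 was -1.27 without low protein sham 1, the highest array. Pdk4, which limits glucose oxidation during fasting, had -1.76 ± 0.74, with low protein sham 1 again the highest array at 9.05. Slc19a2, a thiamine transporter, had -1.03 ± 0.32, and -0.53 without control STZ 3, and its other probe set gave 0.10. Snd1, a nuclease of RNA regulation, had -1.30 ± 0.48, and -0.31 at its other probe set. Without control sham 1 the Snd1 interaction was -1.776, and without control sham 3 it was -0.975.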

How the data were processed

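RNA from 11 pancreases was hybridised to Affymetrix mouse arrays. The deposited values, 1 log2 signal for each probe set, were used without further scaling; the submitters' processing notes list RMA and Partek 6.5 without a role or order. Of 45101 probe sets, 34958 carried 1 gene symbol in the platform annotation, 932 carried several and 9211 none; probe sets of these last kinds were dropped. Each of 18194 genes was represented by its brightest probe set, and 2297 genes with a mean at or under 6.866 (the 0.25 quantile of probe set means) were not tested.

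A model with 4 group means was fitted in R 4.3.3 by limma 3.58.1 (lmFit, eBayes, two-sided, 15897 genes; 7 residual degrees of freedom), with Benjamini-Hochberg adjustment over all of them at 0.05, and tested on simulated data. Tables and figures used Python 3.11.15. The number of arrays limits the precision. The labels call replicates biological. The arrays, the gene lists and the rule for named genes were chosen with earlier results of these data known. The rule names the islet hormones and G6pc2, the 10 smallest p in each direction, 3 members of each described list and up to 6 genes of each class separated in opposite directions. Alternatives were other moderation, array weights, scaling, probe set choice, no filter, a 1.5-fold minimum, a hybridisation control covariate, a replicate block and each array left out; other probe sets of named genes were read after the data had been seen.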

Additional observations from a re-analysis of the deposited data

Results flagged for a closer look

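For 13 named genes every STZ array lay on one side of every sham array in one diet and on the other side in the other diet. All of them except Tyrobp were named by a rule that asks for this separation, so it is a description only. The difference between the diets was tested as the interaction, and none passed adjustment (limma adjusted p = 1 for each). The genes that were lower after STZ in the control diet and higher in the low protein diet were Phf20 (interaction 0.70 on the log2 scale), Vamp3 (0.56), S100a4 (0.55), Cnot10 (0.46), Msrb3 (0.40), E230029C05Rik (0.39) and Tyrobp (0.27), the adaptor of activating myeloid receptors. The reverse order held for Gm20346 (-0.69), Micalcl (-0.55), Zfp819 (-0.55), Atg101 (-0.54), Lrrfip2 (-0.48) and Dvl3 (-0.44). Tyrobp read 8.82, 8.96 and 8.95 in control sham, 8.81 and 8.78 in control STZ, 8.88, 8.92 and 8.94 in low protein sham, and 9.05, 9.15 and 8.99 in low protein STZ. Its STZ and sham arrays were separated by small gaps in both diets, while the 18 myeloid markers tested had a median interaction of -0.02. Of the 15897 genes, 0.415% and 0.327% were separated in these opposite ways, against 0.201% and 0.384% in the same direction. With so few arrays, some genes are separated when no gene differs. The share to be met in that case was not calculated, so the separation is not evidence of crossed differences.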

How the results depend on the processing

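In every alternative run, 0 genes passed adjustment in limma (0 to 0 with an array left out), and the smallest adjusted p was 0.333, without control sham 2. The count at unadjusted p under 0.05 was 1013 with array weights, 952 with every probe set tested and 60 with a 1.5-fold minimum, and 406 to 852 with an array left out, the highest without control sham 1. Genes with opposite STZ differences numbered 935 with array weights, 913 with every probe set, and 383 to 799 with an array left out. Deviations from group means correlated between -0.32 and 0.257 in 15 same-numbered pairs of arrays (5 over 0.1). In 30 differently numbered pairs they correlated between -0.455 and 0.387 (8 over 0.1). Deviations cancel within groups of so few arrays, so these values cannot decide whether replicate numbers pair the arrays. With the replicate block 0 genes passed adjustment, 481 were at unadjusted p under 0.05 (188 positive, 293 negative) and 454 had opposite STZ differences. Signs turned for Ppy (-0.027 to 0.457 with an array left out, the lowest without control sham 2), Rph3al, a granule docking gene (0.015 with the mean of all probe sets), Prss2 (-0.006 to 0.193) and Cela3b (-0.021 to 0.212, both lowest without low protein STZ 3); the cause was not tested. Of 22 list medians 11 changed sign in at least 1 alternative, and 18 of 462 alternative medians lay further from the reported one than the SD between arrays. In 1832 other values of 92 named genes, direction and call by adjusted p were as reported. Of 65 other probe sets of 34 named genes, 46 had the sign reported. On linear signals, 0 of the 566 genes and 0 of the 92 named genes changed sign.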

Other observations

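Lists that the text has not described had median interactions near that of all tested genes (-0.02). Markers of neighbouring tissues and of nerve were among them, with -0.03 for 10 liver markers, 0.02 for 12 intestinal epithelium markers and -0.01 for 8 neuron and Schwann cell markers. Adipocyte markers had -0.07 over 10 genes, 8 negative and 2 positive, against 55.0% negative over all genes. T and NK cell markers had 0.00 over 14 genes, MHC class II genes 0.01 over 8 and interferon response genes -0.05 over 20.

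The Reg family and other pancreatitis response genes had a median of 0.02 over 11 genes, with lower means in low protein than in control sham arrays for 8 of 11. G1 cyclins and their inhibitors had -0.02 over 16 genes, the IGF axis 0.05 over 11, base excision and alkylation repair, the route that handles STZ damage, -0.04 over 14, and BCL2 family and p53 targets -0.03 over 16. Immediate early genes had -0.02 over 16, glycolysis and hypoxia -0.07 over 18 and cholesterol synthesis -0.09 over 14. None of these lists other than the adipocyte (1), intestinal (2) and neuronal (1) markers held a gene at unadjusted p under 0.05 in limma, against 3.56% of all genes.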
